A study of Mus musculus with 6 samples.

Results

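Contacts of the gene Map2k6 with its chromosomal surroundings were read from Capture Hi-C maps of mouse limb buds at E12.5, in the wild type and in 5 rearranged genotypes of the Sox9 and Kcnj locus. The members were all pairs of 10 kb bins with one bin in the stretch of Map2k6 and the other 2 or more bins away. That stretch, called the viewpoint here, is chr11:110260001-110390000 on mm9 (13 bins, 130 kb) and was duplicated in no genotype. It gave 7526 of the 171405 pairs of bins on the map, and 7437 of them held a contact in WT. Capture Hi-C ligates DNA ends that lie close together in fixed nuclei and enriches the ligation products for 1 locus, so that a count is the number of sequenced ligations between a pair of bins.

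Each genotype was represented by 1 library, so no difference between genotypes had a replicate check and no test across genotypes was made. Intervals in parentheses are exact (Clopper-Pearson) 95% intervals that cover counting error only. By their labels the mutants are deltaBor, Dup-LdeltaBor, Dup-C, Dup-L and Dup-S, beside WT. No source used here gives their zygosity or the number of embryos per library. The altered segments were read from the contact sums of the bins. In deltaBor the bin chr11:111390001-111400000 had lost its contacts. Dup-S had raised sums over chr11:111750001-112170000, Dup-L and Dup-LdeltaBor over chr11:110960001-112520000, and Dup-C over chr11:110770001-112520000. In Dup-LdeltaBor the bin lost in deltaBor held 1606 contacts, against 42393 in Dup-L. The assay measures DNA, so the labelled tissue could not be checked against expression markers.

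Map2k6 encodes MAP kinase kinase 6, which phosphorylates and activates the p38 MAP kinases. Chromosomes fold into topologically associating domains, stretches whose bins touch each other more than they touch the bins outside, and boundaries between domains lower contacts across them. In the order of genes on this chromosome Map2k6 is followed by Kcnj16 and Kcnj2, which encode potassium channels, then by a stretch poor in protein-coding genes and by Sox9, a transcription factor gene of cartilage and limb development. In the published description of these alleles Dup-C takes in the Kcnj genes, and Dup-L ends before them.

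The viewpoint held 206926 contacts in WT, 200539 in Dup-L, 193833 in Dup-LdeltaBor, 179437 in deltaBor, 147539 in Dup-S and 84053 in Dup-C. The smallest library total was 4144258 (Dup-C) and the largest 8965219 (Dup-LdeltaBor). Dup-C was thus the shallowest library and had a contact in 87.5% of the viewpoint's pairs, against 95.4% to 98.8% in the others. Of the library's contacts 2 or more bins apart, the viewpoint made up 4.18% in WT, 4.36% in deltaBor and 4.05% in Dup-S. In the 3 genotypes with a long duplication it made up less of the same contacts, 2.89% in Dup-LdeltaBor, 3.01% in Dup-C and 3.35% in Dup-L. A region's contacts are given below as the share of all contacts of the viewpoint in the same library. Contacts with a duplicated bin are summed over its copies, which reads do not tell apart.

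In WT, Map2k6 lay near the centromeric end of its own domain, chr11:110200001-111380000, which ended 990 kb telomeric of the viewpoint at the boundary bin chr11:111380001-111390000. The domain outside the viewpoint took 44.8% (44.6 to 45.0) of the viewpoint's contacts, and pairs within the viewpoint took 11.1%. The centromeric flank of 1190 kb took 17.3%. The next domain on the telomeric side, chr11:111390001-112650000, took 15.0% (14.9 to 15.2), and the 2230 kb beyond it took 10.9%. Per 100 kb these were 4.26% in the own domain, 1.46% in the flank, 1.19% in the telomeric-side domain and 0.490% beyond it. The profile did not fall evenly with distance. It dropped from 6.27% in the first 100 kb telomeric of the viewpoint to 2.35% at 200 kb to 300 kb. It then had peaks of 4.65% at 500 kb to 600 kb and of 5.37% in the window that ends with the boundary bin, with 2.90% to 3.38% between them.

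**Figure D1:**
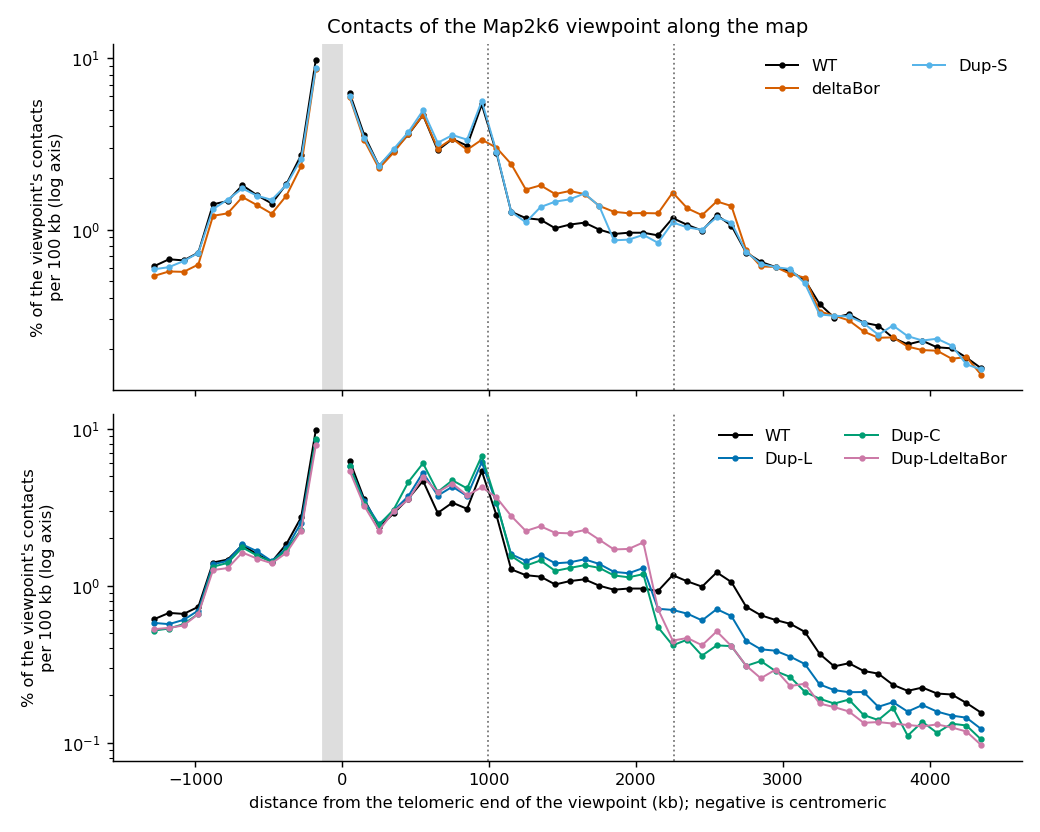
Share of the Map2k6 viewpoint's contacts per window of 100 kb (log axis) against distance from the telomeric end of the viewpoint, for WT, deltaBor and Dup-S (top) and for WT and the 3 genotypes with a long duplication (bottom). The grey band is the viewpoint and the dotted lines are the boundary bin and the end of the telomeric-side domain. WT drops from 5.37% in the window that holds the boundary bin to 1.27% in the second window after it, and the drop is shallower in deltaBor and Dup-LdeltaBor.

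The boundary bin was the single bin that Map2k6 touched most among the 419 bins lying 300 kb or more telomeric of it. It held 1657 contacts in WT, or 0.801% (0.763 to 0.840) of the viewpoint's contacts, against a median of 0.509% over the 10 bins before it and of 0.210% over 10 bins after it, counted from the third bin past the boundary bin. The boundary bin took 0.805% in Dup-S (1188 contacts), 0.901% in Dup-L (1806 contacts) and 0.973% in Dup-C (818 contacts). It ranked first in Dup-L and Dup-C and second in Dup-S. After KR normalisation, which equalises the sums of all bins, it ranked first in WT, Dup-S and Dup-C and second in Dup-L.

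In deltaBor the boundary bin held 114 of the viewpoint's contacts, a share of 0.0635%, and in Dup-LdeltaBor 287, a share of 0.148%. The bin's own coverage moved with this: its contacts with the whole map stood at 27.1% of the median bin in deltaBor and at 66.1% in Dup-LdeltaBor, against 132.8% in WT and 231% in Dup-L. Read as a share of the boundary bin's own contacts, which takes its coverage into account, Map2k6 supplied 7.52% in WT and 3.10% in deltaBor. The same share was 4.66% in Dup-L and 2.698% in Dup-LdeltaBor. It was 7.42% in Dup-S and 4.44% in Dup-C. The lower share in the genotypes with a duplicated boundary bin goes with the higher sums of that bin. By both readings the genotype lacking the boundary was below its counterpart that keeps it. Map2k6 also supplied less of the contacts of the bin before, chr11:111370001-111380000: 3.69% in deltaBor against 6.91% in WT, and 1.94% in Dup-LdeltaBor against 4.33% in Dup-L. That bin's own sum stood at 251% of the median bin in Dup-LdeltaBor and 192% in Dup-L, and a higher sum lowers this share. As a share of the viewpoint's contacts the bin took 0.403% in Dup-LdeltaBor and 0.697% in Dup-L. After KR normalisation the boundary bin took 0.290% of the viewpoint's contacts in deltaBor, 0.676% in WT, 0.374% in Dup-LdeltaBor and 0.570% in Dup-L. In Dup-LdeltaBor the bin before had 0.287% and the bin after 0.459%, from 89 raw contacts.

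**Figure D2:**
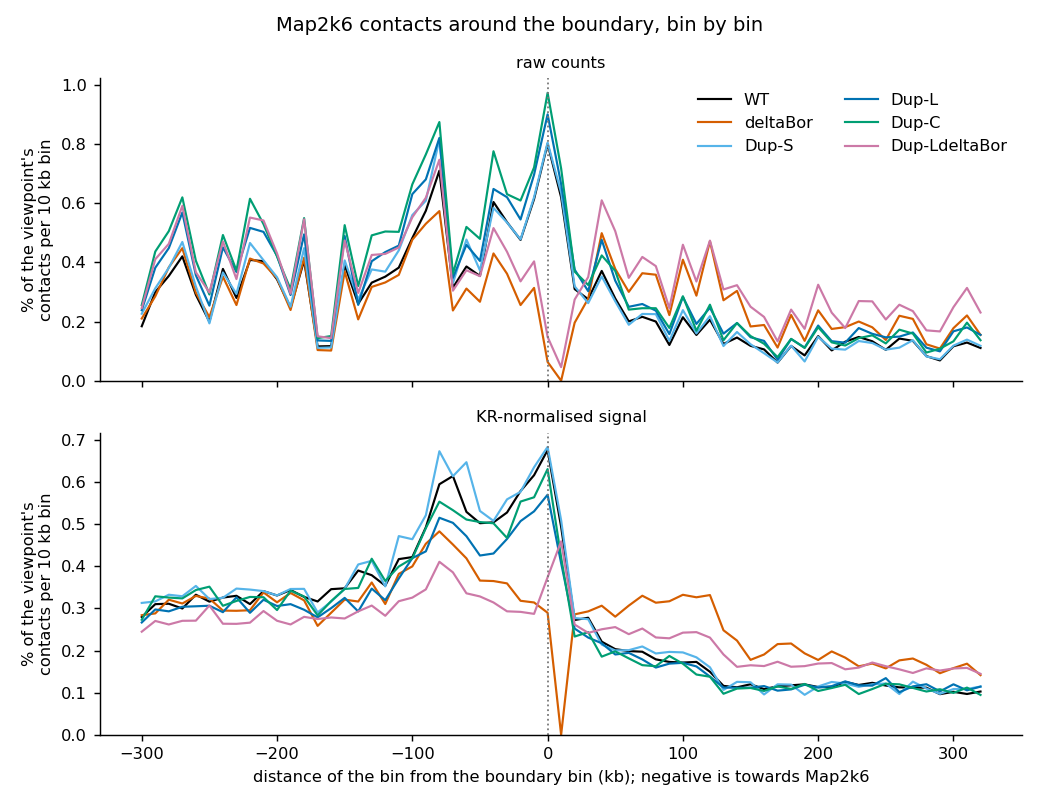
Share of the Map2k6 viewpoint's contacts in each 10 kb bin from 300 kb before to 320 kb after the boundary bin, as raw counts (top) and as KR-normalised signal (bottom), 1 line per library. WT, Dup-C and Dup-L are highest at the boundary bin in this range and then fall, and in the raw map Dup-S has 0.805% there after 0.816% at 80 kb before it. In the raw map deltaBor and Dup-LdeltaBor have no peak there and lie above the other libraries between 60 kb and 200 kb past it. In the KR map Dup-LdeltaBor rises to 0.459% in the bin after the boundary bin, from 89 raw contacts.

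The height of the step across the boundary was compared between the 100 kb before the boundary bin and the 100 kb from the third bin after it. These stretches, chosen after the values were seen, have the same copy number as each other in every genotype, and their ratio needs no scaling between libraries. In WT, 10454 contacts before and 4630 after gave a ratio of 0.443 (0.428 to 0.459). Dup-S gave 0.423 (0.406 to 0.440), Dup-C 0.428 (0.407 to 0.449) and Dup-L 0.468 (0.454 to 0.484). Both genotypes that lack the boundary lay well above these, at 0.949 (0.917 to 0.982) in deltaBor and 0.891 (0.864 to 0.918) in Dup-LdeltaBor. KR-normalised values kept this split, with 0.348 to 0.385 in the 4 libraries that keep the boundary, 0.798 in deltaBor and 0.728 in Dup-LdeltaBor. With 300 kb on each side the ratios were 0.406 in WT, 0.746 in deltaBor and 0.707 in Dup-LdeltaBor. At the other end of the own domain, the ratio of the 60 kb outside to the 60 kb inside ranged from 0.329 to 0.369 over the 6 libraries, with deltaBor at 0.352. The inside stretch there adjoins the viewpoint, so this ratio also holds the fall of contacts with distance. It cannot show whether that domain end was unaffected.

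The comparison of deltaBor with WT asks how far Map2k6 reaches when the boundary is removed. The telomeric-side domain took 21.2% (21.0 to 21.4) of the viewpoint's contacts in deltaBor and 15.0% in WT, a fold of 1.41 (1.39 to 1.43). The gain was largest close to the lost bin. The window chr11:111490001-111590000, 1100 kb from the viewpoint, rose from 2628 to 4331 contacts, a fold of 1.90 (1.81 to 2.00), followed by chr11:111690001-111790000 at 1.59 and chr11:111790001-111890000 at 1.58. It was smaller farther out, with a fold of 1.27 (1.197 to 1.35) in the last 100 kb of the stretch duplicated in Dup-L. On the near side, the 100 kb before the boundary bin fell from 5.05% to 3.76% of the viewpoint's contacts, a fold of 0.744 (0.721 to 0.767), and 0.730 after KR normalisation. The own domain outside the viewpoint took 41.9%, against 44.8% in WT, and the centromeric flank 15.0%, against 17.3%. Over the contacts centromeric of the Dup-C segment, which are duplicated in no genotype, the fold of the own domain turned from 0.935 to 1.04, and that of the flank was 0.960. Beyond the telomeric-side domain the share was 11.9%, against 10.9% in WT.

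A window of 100 kb was called higher or lower past a fold of 1.2 with an interval that leaves out 1. In deltaBor 16 of the 56 windows were higher, where 14.6% of the same windows over all 44 viewpoints of this length tiled along the map were, and 10.6% over the 29 tiled viewpoints outside the Dup-C segment. The 16 windows formed 1 unbroken run from chr11:111490001 to 113090000, which covered most of the telomeric-side domain and went past its end. The next window outward had 0.734% in WT and 0.758% in deltaBor. Only 1 window was lower, against 6.44% over all tiled viewpoints and 3.48% over those outside the Dup-C segment: chr11:111290001-111390000, which includes the boundary bin, at 0.623 (0.603 to 0.643). The next smallest folds were 0.848 and 0.849, both in the centromeric flank.

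**Figure D3:**
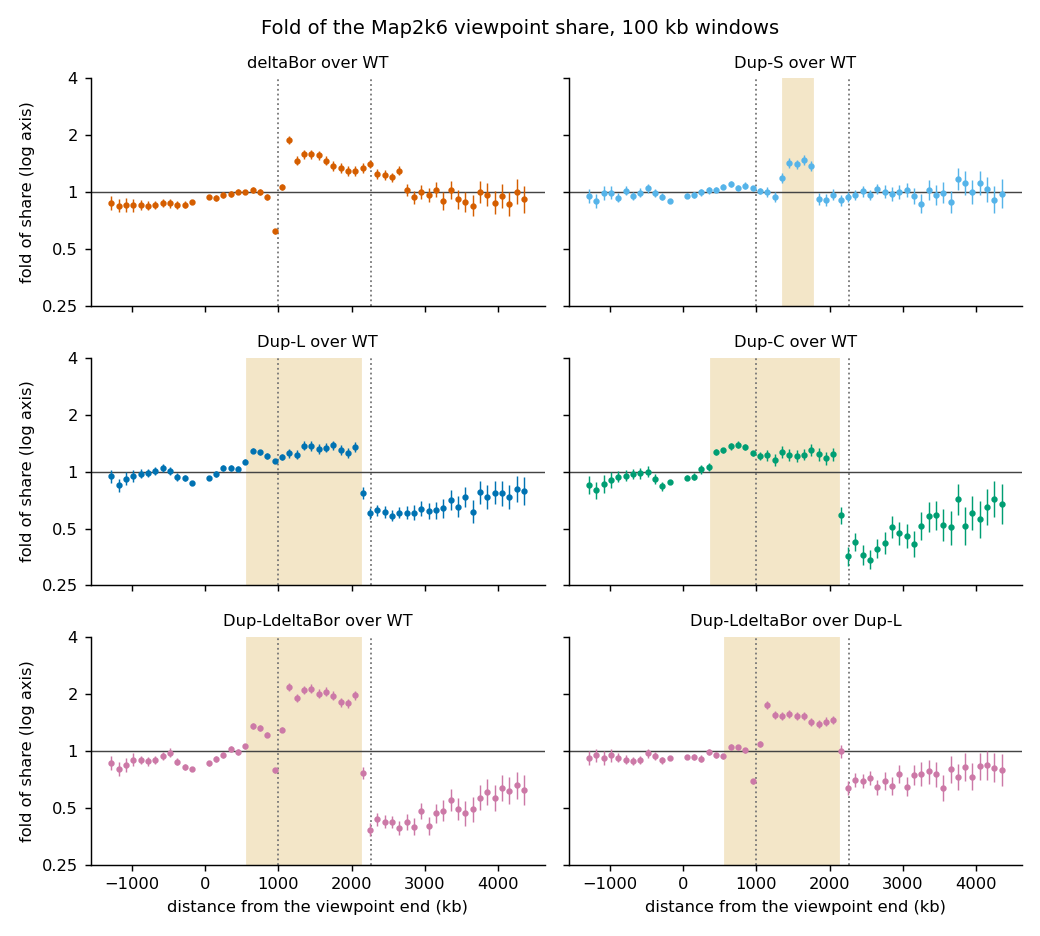
Fold of the Map2k6 viewpoint's share in each window of 100 kb (log axis) against distance from the telomeric end of the viewpoint, for the 6 comparisons. Bars are 95% counting intervals, tan bands are the duplicated segments and dotted lines are the boundary bin and the end of the telomeric-side domain. The gain in deltaBor runs from 1100 kb to 2700 kb, the gain in Dup-S stays over its segment, and the 3 long duplications change from above 1 to below 1 at the end of theirs.

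Dup-S duplicates a stretch inside the telomeric-side domain, 1360 kb from the viewpoint, and leaves the boundary in place. Map2k6 touched that stretch in 6.38% of its contacts in Dup-S and in 4.41% in WT, a fold of 1.45 (1.404 to 1.49). The rest of the telomeric-side domain was at 10.3% in Dup-S and 10.6% in WT, a fold of 0.967 (0.947 to 0.988). This direction turned with the centromeric denominator, to 1.03, and KR shares were 9.38% in Dup-S and 9.34% in WT. The whole domain therefore took 16.6%, against 15.0%. After KR normalisation the fold of the whole domain was 1.03. The windows called higher numbered 4, all over the segment or across its ends, at folds of 1.37 to 1.48, where 11.2% over all tiled viewpoints were and 13.5% over those outside the Dup-C segment. None was lower (0 of 56), against 1.13% and 0.183%. With KR normalisation 2 windows were higher. Beyond the domain the share was 10.9% in both libraries.

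Dup-L and Dup-C duplicate stretches on both sides of the boundary, which start 570 kb and 380 kb from the viewpoint and end at the same bin. Map2k6 had a larger share of its contacts over the duplicated stretches and a smaller one past them. The duplicated part of its own domain from chr11:110960001 to the boundary took 15.1% in WT, 18.4% (18.3 to 18.6) in Dup-L and 20.1% (19.8 to 20.3) in Dup-C. The stretch chr11:110770001-110960000, duplicated in Dup-C but not in Dup-L, took 7.62% in WT, 8.05% in Dup-L and 9.71% (9.51 to 9.92) in Dup-C. Across the start of each segment the fold over WT changed within 200 kb. In Dup-C it was 1.04 (0.991 to 1.09) in the 100 kb before and 1.27 (1.22 to 1.32) in the 100 kb after. In Dup-L it was 1.08 (1.05 to 1.11) before and 1.28 (1.24 to 1.32) after. KR normalisation turned both changes, to 1.23 before and 0.919 after in Dup-C and to 1.21 before and 0.945 after in Dup-L, and put the stretch duplicated only in Dup-C at 0.912 of WT.

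The duplicated part of the telomeric-side domain took 13.7% in WT, 17.6% in Dup-L and 16.7% in Dup-C, and the whole domain 15.0%, 18.4% and 17.2%. The folds of the whole domain were 1.22 (1.21 to 1.24) in Dup-L and 1.14 (1.12 to 1.16) in Dup-C. These gains depended on the scaling. KR normalisation gave 0.996 in Dup-L and 0.904 in Dup-C, and division by the library's contacts 2 or more bins apart gave 0.982 and 0.823. Division by all contacts of the library, adjacent bins included, gave 1.02 in Dup-L and 0.789 in Dup-C. The gain in the duplicated part of the own domain turned in the same way, to 0.909 and 0.977 after KR normalisation. KR normalisation divides out the raised sums of duplicated bins, so for these bins the raw share counts all copies and the KR value is relative to the bin's coverage.

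The loss past the segment kept its direction with KR values and, beyond the domain, also with the centromeric denominator. The 100 kb before the shared end of the segments had a fold of 1.34 (1.26 to 1.43) in Dup-L and the 100 kb after it 0.583 (0.543 to 0.626). In Dup-C the same stretches had 1.22 (1.13 to 1.32) and 0.373 (0.331 to 0.420), from 956 and 321 contacts. After KR normalisation the stretch before the end was at 1.06 in Dup-L and 0.971 in Dup-C, and the stretch past it at 0.699 and 0.465. All contacts beyond the telomeric-side domain made up 6.97% (6.86 to 7.08) in Dup-L and 5.01% (4.87 to 5.16) in Dup-C, against 10.9% in WT, folds of 0.638 and 0.459. KR values gave 0.721 and 0.555. Scaling on the contacts centromeric of the Dup-C segment, a stretch duplicated in no genotype, gave 0.683 and 0.493. The loss was larger in Dup-C than in Dup-L, with a fold of Dup-C over Dup-L of 0.719 (0.695 to 0.745). Set against these losses, contacts with everything telomeric of the boundary bin, gains and losses together, were 26.0% in WT, 25.4% in Dup-L and 22.2% in Dup-C.

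In Dup-L 13 windows were higher, where 19.7% over all tiled viewpoints were and 22.5% over those outside the Dup-C segment, and 23 were lower, against 36.4% and 25.6%. In Dup-C 15 were higher, against 21.7% and 24.7%, and 24 were lower, against 43.7% and 31.3%. As shares of the 56 windows these are 23.2% and 41.1% in Dup-L and 26.8% and 42.9% in Dup-C, near the shares over all tiled viewpoints, so these numbers of calls are not a result about Map2k6. Every higher window lay within the Dup-C segment. In each comparison 21 of the lower windows started past the end of the telomeric-side domain. A further 2 held or followed the end of the segment, and Dup-C had 1 more in the centromeric flank. The smallest folds fell at chr11:112890001-112990000 in both, at 0.583 in Dup-L and 0.343 (0.306 to 0.383) in Dup-C. With KR normalisation the counts were 0 higher and 18 lower in Dup-L, and 1 higher and 22 lower in Dup-C.

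Dup-LdeltaBor has raised sums over the same segment as Dup-L, without the boundary. By the labels, its comparison with Dup-L adds the deletion of the boundary to the duplication. The labels do not say on which chromosome or copy the deletion lies. The comparison shares no library with that of deltaBor with WT. The raised sums were not equal. The bin chr11:111370001-111380000 stood at 251% of the median bin in Dup-LdeltaBor and 192% in Dup-L, and chr11:111410001-111420000 at 250% and 201%. Whether the libraries differ in the dose of the segment was not tested. The telomeric-side domain took 25.9% (25.7 to 26.1) in Dup-LdeltaBor and 18.4% in Dup-L, a fold of 1.405 (1.39 to 1.42), beside 1.41 for deltaBor over WT. After KR normalisation the folds were 1.28 and 1.44. The windows with the largest gain were chr11:111490001-111590000 at 1.75 (1.68 to 1.83), chr11:111790001-111890000 at 1.56 and chr11:111590001-111690000 at 1.55. The first of these was also the largest in deltaBor. The 100 kb before the boundary bin fell from 5.85% to 4.64%, a fold of 0.793 (0.771 to 0.815).

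Past the end of the segment the comparisons went opposite ways. The last 130 kb of the telomeric-side domain, chr11:112520001-112650000, held 1001 contacts in Dup-LdeltaBor and 1586 in Dup-L, shares of 0.516% and 0.791% and a fold of 0.653 (0.603 to 0.707). The same stretch held 3425 contacts in deltaBor and 2776 in WT, a fold of 1.42 (1.35 to 1.496). Beyond the domain the fold was 0.716 (0.698 to 0.735) for Dup-LdeltaBor over Dup-L and 1.09 (1.07 to 1.11) for deltaBor over WT. KR values were 0.778 and 1.11. By raw shares the other 11 tiled viewpoints centromeric of the Dup-C segment also moved these opposite ways, so the directions are not particular to Map2k6. In Dup-LdeltaBor over Dup-L 10 windows were higher, where 10.7% over all tiled viewpoints were and 9.58% over those outside the Dup-C segment, and 22 were lower, against 27.8% and 22.1%. As shares of the 56 windows these are 17.9% and 39.3%. The 10 higher windows formed an unbroken run from chr11:111490001 to 112490000 and ended before the window that contains the segment's end, whereas the run in deltaBor went on past that position.

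Against WT, the telomeric-side domain in Dup-LdeltaBor had a fold of 1.72 (1.70 to 1.75), which was 1.27 after KR normalisation, 1.27 over all contacts of the library and 1.19 over those 2 or more bins apart. The 100 kb before the end of the segment had 1.94 (1.83 to 2.05) and the 100 kb after it 0.396 (0.365 to 0.430). Beyond the domain the share was 4.99% (4.90 to 5.09), close to the 5.01% of Dup-C, with a fold over WT of 0.457. Here 14 windows were higher, where 21.7% over all tiled viewpoints were and 24.2% over those outside the Dup-C segment, and 27 were lower, against 45.5% and 35%. As shares of the 56 windows these are 25% and 48.2%. They are near the shares over all tiled viewpoints, so these numbers of calls are not a result about Map2k6. The largest fold was again at chr11:111490001-111590000, from 2628 to 5388 contacts, at 2.19 (2.09 to 2.29). The smallest was chr11:112590001-112690000, from 2413 to 866 contacts, at 0.383. Dup-LdeltaBor is in both of these comparisons, and WT is the control of 5 of the 6.

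**Figure D4:**
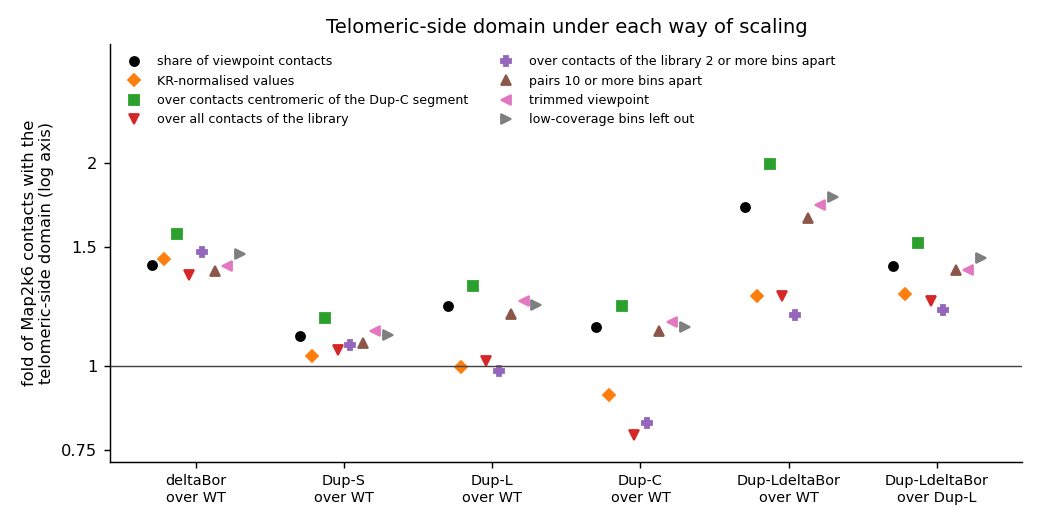
Fold of the Map2k6 viewpoint's contacts with the telomeric-side domain (log axis) in the 6 comparisons, with 1 symbol for each way of scaling or filtering. All symbols lie above 1 for deltaBor, Dup-S and both comparisons of Dup-LdeltaBor, whereas Dup-L and Dup-C lie below 1 with KR normalisation and over the library's contacts 2 or more bins apart. Over all contacts of the library Dup-L is at 1.02 and Dup-C at 0.789.

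The 13 bins of the viewpoint did not contribute alike. In WT the share of a bin's contacts that went to the telomeric-side domain was 11.7% in bin 2, the lowest, and 16.3% in bin 11, the highest, with bins counted from the centromeric end. Bin 11 was also highest in deltaBor (24.6%), Dup-L (19.5%), Dup-C (17.2%) and Dup-LdeltaBor (29.3%), and bin 10 was highest in Dup-S (17.2%). The share that went to the centromeric flank was highest at the centromeric end, with 20.4% in bin 1 and 9.55% in bin 13 of WT. The bins are neighbours of 1 library and are no replicates of a genotype.

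The contact with the boundary bin was concentrated at the telomeric end of the viewpoint. Bins 1 to 8 held 47 to 80 contacts each with the boundary bin in WT, whereas bins 9 to 13 held 166 to 287, with the largest number in bin 10. This split of the bins was chosen after these values were seen, so the lack of overlap between the groups is no separate result. The 5 telomeric bins supplied 67.5% of the viewpoint's contacts with the boundary bin in WT, 66.4% in Dup-S, 66.2% in Dup-L and 66.4% in Dup-C. In deltaBor they supplied 50.9%, with 1 to 15 contacts in bins 1 to 8 and 7 to 16 in bins 9 to 13, which overlapped. In Dup-LdeltaBor they supplied 58.9%. As a share of their own contacts, bins 9 to 13 (chr11:110340001-110390000) sent 1.09% (1.03 to 1.16) to the boundary bin in WT and bins 1 to 8 sent 0.421% (0.387 to 0.458). KR values were 0.984% and 0.361%.

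The same bins also differed in how much they gained in deltaBor. The telomeric-side domain rose from 15.1% to 22.6% of the contacts of bins 9 to 13, a fold of 1.49 (1.46 to 1.52), and from 12.2% to 16.5% in bins 1 to 8, a fold of 1.35 (1.32 to 1.38). In Dup-LdeltaBor over Dup-L these folds were 1.499 (1.47 to 1.53) and 1.33 (1.31 to 1.36). KR normalisation kept the order in both comparisons, with 1.54 and 1.37 in deltaBor over WT, and 1.38 and 1.19 in Dup-LdeltaBor over Dup-L. In the genotypes that keep the boundary the order was the other way. Bins 9 to 13 had 1.18 in Dup-L and 1.08 in Dup-C, and bins 1 to 8 had 1.30 and 1.22. KR values kept this order but were 0.957 and 0.854 in bins 9 to 13, and 1.02 and 0.921 in bins 1 to 8. Contacts between the groups of bins count in both, so these shares are not parts of 1 total. Taken singly and by raw shares, all 13 bins had a higher share with the telomeric-side domain in each of the 6 comparisons, and the intervals of the compared libraries were apart in 13 bins for deltaBor, 11 for Dup-S, 13 for Dup-L, 9 for Dup-C and 13 for each comparison of Dup-LdeltaBor. Beyond the domain all 13 were lower in Dup-L, Dup-C and both comparisons of Dup-LdeltaBor, 6 were lower in Dup-S and 0 in deltaBor. The same counts over the other bins of the map were not made. All 12 tiled viewpoints centromeric of the Dup-C segment, Map2k6 included, had a fold above 1 with the telomeric-side domain in each comparison. Beyond it all were below 1 in Dup-L, Dup-C and both comparisons of Dup-LdeltaBor. These counts of bins are therefore not a result about Map2k6.

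**Figure D5:**
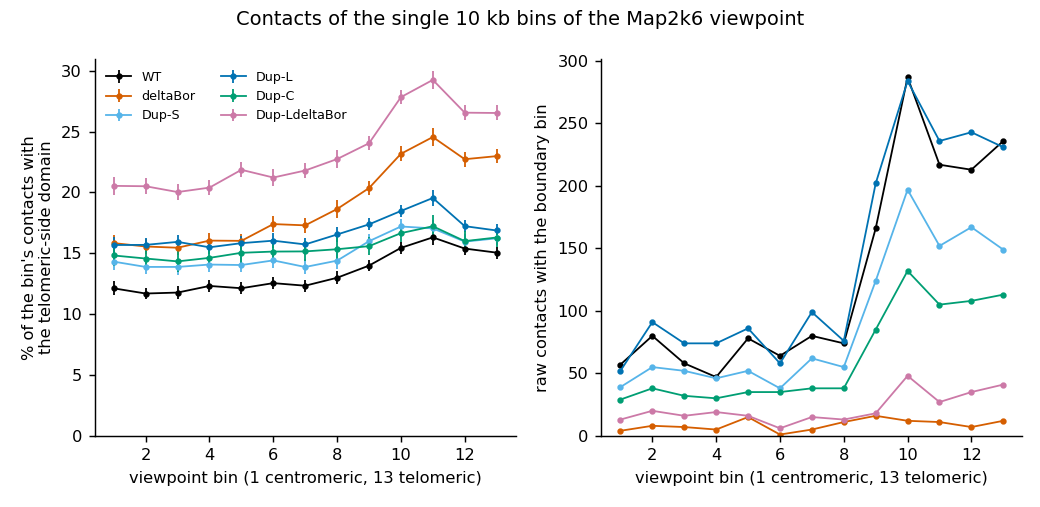
Left, share of each viewpoint bin's contacts that went to the telomeric-side domain, with 95% counting intervals; right, raw contacts of each viewpoint bin with the boundary bin. Lines are libraries and bin 1 is the centromeric end. Bins 9 to 13 hold 166 to 287 boundary contacts in WT against 47 to 80 in bins 1 to 8, and at most 16 in any bin of deltaBor.

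Other stretches of the same length centromeric of the Dup-C segment showed where Map2k6 stood. In deltaBor over WT the telomeric-side domain had a fold of 1.05 to 1.14 in the 8 viewpoints lying wholly in the centromeric flank, 1.28 in the viewpoint across the domain start, next to Map2k6, 1.41 in Map2k6 and 1.46 and 1.36 in the next 2 stretches inside the domain. Over Dup-L, Dup-LdeltaBor had 1.17 to 1.24 in those 8 viewpoints, 1.30 across the domain start, 1.405 in Map2k6 and 1.499 and 1.41 inside the domain. In both comparisons the viewpoints inside the domain were thus above those outside it, and Map2k6 lay with its neighbours of the same domain. In Dup-L over WT the order was reversed. The 8 viewpoints of the flank had 1.36 to 1.44, Map2k6 1.22 and its neighbours inside the domain 1.19 and 1.26. The loss beyond the telomeric-side domain in Dup-C was 0.579 to 0.756 in the 8 viewpoints, 0.459 in Map2k6 and 0.446 and 0.484 inside the domain. These folds are of raw shares, and the order of the viewpoints was not compared under other scalings. The Map2k6 fold in Dup-L was 1.31 with the centromeric denominator and 0.996 with KR values. These viewpoints share the libraries, and the values describe them without a test.

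By the likeness of the log2 folds over fixed windows, all 5 mutants over WT together, the stretches most like Map2k6 were its neighbours. The Pearson correlation was 0.97 for chr11:110130001-110260000 (255 points) and for chr11:110390001-110520000 (250 points), and 0.96 for chr11:110520001-110650000 (245 points). The points share libraries, the WT control and the altered segments, so the correlations are a description.

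The authors' deposited comparison maps hold the same pairs of the same libraries and are no separate evidence. Shares over all pairs of these maps were not computed, so the shares below are not shown to be particular to Map2k6. In the authors' deposited difference map of deltaBor minus WT, 81.7% of the 1638 pairs of the viewpoint with the telomeric-side domain were above 0, and in that of Dup-LdeltaBor minus Dup-L 83.3% were. The authors' deposited difference maps gave 72.04% for Dup-L, 59.6% for Dup-S and 55.1% for Dup-C, each minus WT. Over the 2899 pairs beyond the domain the authors' deposited maps had 51.0% above 0 for deltaBor and 48.7% for Dup-S, each minus WT. The authors' deposited maps had 30.1% for Dup-L and 18.6% for Dup-C, each minus WT, and 37.6% for Dup-LdeltaBor minus Dup-L. For the boundary bin, 0 of the 13 pairs were above 0 in the authors' deposited difference maps of deltaBor and Dup-LdeltaBor, and all 13 were in that of Dup-C. The authors' deposited log2 map of WT over deltaBor had a median of 3.64 over these 13 pairs and of -0.52 over the telomeric-side domain. The boundary bin's own coverage was also lower, at 27.1% of the median bin in deltaBor and 132.8% in WT. It was 66.1% in Dup-LdeltaBor and 231% in Dup-L. The values of the 13 pairs are not corrected for this. No source used here states how the authors scaled the libraries for these maps.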

How the data were processed

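Reads were mapped to mm9 with Bowtie2 2.2.6, per the submitters' processing notes. The authors deposited, per library, raw contact counts for pairs of 10 kb bins (mapping quality 30 in the names of the maps) and a KR-balanced signal of the same pairs. The authors also deposited 2 log2 maps and 5 difference maps. Read-pair filtering and duplicate removal are not stated. Positions in the Dup-C and Dup-S maps are offsets and were placed on the bins of WT.

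The members, regions and lists were chosen with earlier results of these data known. Domain ends were minima of an insulation score (500 kb diamond, prominence of 0.3 on the log2 scale), and each altered segment was the stretch of consecutive bins that stood out most, over its standard error, in the log2 ratio of bin sums to WT (pseudocount 0.5). A fold is a ratio of shares with an exact interval conditional on both counts; sequenced ligations without molecular identifiers need not be independent. Named windows were the 3 largest and 3 smallest folds per comparison with at least 50 counts in both libraries. The alternatives were KR values, denominators from the contacts centromeric of the Dup-C segment, from all contacts of the library or from those 2 or more bins apart, pairs 10 or more bins apart, a viewpoint trimmed by 3 bins at each end, leaving out 10 low-coverage bins, a call fold of 1.5 and 200 kb windows. Procedures were tested on simulated data. Python 3.11.15, numpy 2.4.6, pandas 2.3.3 and scipy 1.17.1 were used.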

Additional observations from a re-analysis of the deposited data

Results flagged for a closer look

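The pair of comparisons that remove the boundary moved opposite ways past the end of the Dup-L segment. Contacts of Map2k6 with the last 130 kb of the telomeric-side domain had a fold of 1.42 in deltaBor over WT and of 0.653 in Dup-LdeltaBor over Dup-L. Contacts beyond that domain had a fold of 1.09 and of 0.716. The other 11 tiled viewpoints centromeric of the Dup-C segment moved the same ways, so these directions are not particular to Map2k6. Their folds were 1.02 to 1.39 and 0.703 to 0.839 in the last 130 kb. Beyond the domain they were 1.03 to 1.11 and 0.744 to 0.866. These results stood out because the deltaBor label went with a higher share on 1 background and a lower share on the other. The bin chr11:111370001-111380000, in the duplicated segment, stood at 251% of the median bin in Dup-LdeltaBor and 192% in Dup-L. Whether a different dose of the segment has a part in the contrast was not tested. The contrast between the comparisons was not tested either, since each genotype has 1 library.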

How the results depend on the processing

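No paired analysis was possible because each genotype has 1 library. With KR values the fold of Map2k6 contacts with the telomeric-side domain over WT was 1.44 for deltaBor, 1.27 for Dup-LdeltaBor, 0.904 for Dup-C, 0.996 for Dup-L and 1.03 for Dup-S, and 1.28 for Dup-LdeltaBor over Dup-L. Over the contacts centromeric of the Dup-C segment it was, in the same order, 1.57, 1.99, 1.23, 1.31, 1.18 and 1.52. Over all contacts of the library it was 1.36, 1.27, 0.789, 1.02, 1.05 and 1.25. Over the library's contacts 2 or more bins apart, a denominator added after seeing the data, it was 1.47, 1.19, 0.823, 0.982, 1.07 and 1.21. With pairs 10 or more bins apart it was 1.38 in deltaBor, 1.66 for Dup-LdeltaBor, 1.08 for Dup-S and 1.19 for Dup-L over WT. Without low-coverage bins it was 1.46 in deltaBor, 1.78 in Dup-LdeltaBor over WT and 1.45 in Dup-LdeltaBor over Dup-L, and with the trimmed viewpoint 1.25 in Dup-L. Dup-LdeltaBor over deltaBor, a comparison added after seeing the data, turned from 1.22 to 0.883 (KR), 0.931 (all contacts of the library) and 0.807 (contacts 2 or more bins apart).

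Other regions turned direction as well. For the centromeric flank, KR values gave 1.04 in Dup-LdeltaBor and 1.06 in both Dup-C and Dup-L, and the centromeric denominator 1.03 in Dup-S, 1.01 in Dup-LdeltaBor and 1.02 in Dup-L. For the own domain between the viewpoint and the Dup-C segment, KR values gave 1.14 in Dup-LdeltaBor, 1.19 in Dup-C, 1.11 in Dup-L and 1.02 in Dup-LdeltaBor over Dup-L, and the centromeric denominator 1.06 in deltaBor, 1.06 in Dup-LdeltaBor, 1.03 in Dup-C, 1.04 in both Dup-L and Dup-S, and 1.01 in Dup-LdeltaBor over Dup-L. The stretch duplicated only in Dup-C had 0.912 in Dup-C with KR values, and in Dup-LdeltaBor over Dup-L 1.03 with KR values and 1.01 with the centromeric denominator. The duplicated part of the own domain had KR values of 0.766 in Dup-LdeltaBor, 0.977 in Dup-C and 0.909 in Dup-L, and with the centromeric denominator 1.01 in deltaBor and 1.04 in Dup-LdeltaBor over Dup-L.

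KR values lowered the number of windows called higher from 4 to 2 in Dup-S, from 15 to 1 in Dup-C and from 13 to 0 in Dup-L. At a call fold of 1.5 the windows higher and lower were 4 and 1 in deltaBor, 10 and 22 in Dup-LdeltaBor, 0 and 20 in Dup-C, 0 and 13 in Dup-L and 0 and 0 in Dup-S over WT, and 6 and 5 in Dup-LdeltaBor over Dup-L. Windows of 200 kb, of which there are fewer, gave, in the same order, 8 and 1, 7 and 13, 8 and 12, 6 and 11, 2 and 0, and 6 and 11. The boundary ratio and its reaches were also added after seeing the data. With 1 library per genotype, variation between embryos is unmeasured, and Dup-C, the shallowest library, has the widest intervals.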
